A study of Mus musculus with 4 samples.

Results

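Cyclic nucleotide phosphodiesterases are the enzymes that break down cAMP and cGMP, the second messengers of hormone receptors. The gene group described here holds 10 members, Pde4d, Pde4b, Pde1a, Pde1c, Pde3a, Pde5a, Pde7b, Pde8a, Pde10a and Pde11a, all protein-coding genes of at least 121 kb, out of 21631 protein-coding genes on chromosomes 1 to 19 and X. Their peaks of histone H3 lysine 36 dimethylation were taken as those overlapping the gene or 10 kb on either side, which gave 25 of 7699 peaks with melatonin and 30 of 8361 without. The study mapped this mark by chromatin immunoprecipitation and sequencing in mesenchymal stem cells (MSCs), stromal progenitors cultured from mouse bone marrow. In the melatonin group, 1 library, cells had received melatonin, the pineal hormone, at 1 µM over 24 hours, and in the untreated group, also 1 library, they had not. This grouping follows the treatment label of each sample, while the protocol text attached to all samples of the series mentions melatonin. Both were grown in the same serum-containing medium, and each was called against an input library made without antibody. The sample labels give no strain, sex, age or number of animals, while the series text speaks of old donors. With 1 library per condition there is no replicate check, no p-value is given between conditions, and all intervals cover counting error only. Sequencing depth was 14180076.5 tags with melatonin and 13198427.5 without, of which 1.12% and 1.24% lay in peaks.

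Each phosphodiesterase family differs in what it cleaves and how it is controlled. The families encoded by Pde4, Pde7 and Pde8 genes are selective for cAMP, that of Pde5a is selective for cGMP, and those of Pde1, Pde3, Pde10 and Pde11 genes take both nucleotides. Pde1 enzymes are switched on by calcium and calmodulin, and Pde3 enzymes are cAMP-cleaving enzymes inhibited by cGMP. In bone-forming cells cAMP carries the signal of parathyroid hormone, while the melatonin receptors couple mainly to inhibitory G proteins that lower cAMP. H3K36me2 is deposited by NSD2 and related enzymes over gene bodies and intergenic sequence, usually as wide domains.

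Of the 18 start sites that the RefSeq promoter table (GRCm38.p6) lists for 9 of the 10 genes, 1 lay under a peak. Pde3a had no entry in the table. For Pde7b the only listed start, at 20548328, lies well inside the gene, which runs to 20725078 and is read from the minus strand. All listed starts of Pde4b, Pde1a, Pde1c and Pde10a also lie well inside the gene. Starts at the outer ends of these genes were therefore not covered. Pde4d has 1 listed start, at the outer end of the gene, so any starts farther inside it were not examined. The marked start belongs to Pde1a, which has 4 listed starts on the minus strand, and it was covered with melatonin by the peak at 79907748 to 79908748 on chromosome 2 (fold over input 4.02). Across the 32619 listed promoter windows of chromosomes 1 to 19 and X (250 bases before to 50 after a start), 0.208% were overlapped by a melatonin peak and 0.144% by an untreated one. The 250 bases upstream of this start are printed beside those of 3 other listed starts. These are the next Pde1a start, the internal start of Pde7b, which was the next closest to a peak, and that of Pde4d, the gene with the most peaks. Capitals mark CpG dinucleotides, the sites of DNA methylation in mammals, and each sequence runs 5′ to 3′ on the gene's strand.
Pde1a, marked start (chr2:79908400-79908649, minus strand): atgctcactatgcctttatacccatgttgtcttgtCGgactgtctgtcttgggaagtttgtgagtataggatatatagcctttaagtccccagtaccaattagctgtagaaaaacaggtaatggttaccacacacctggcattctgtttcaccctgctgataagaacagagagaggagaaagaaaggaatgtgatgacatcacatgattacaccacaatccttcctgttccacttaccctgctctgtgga
Pde1a, next start (chr2:80038903-80039152, minus strand): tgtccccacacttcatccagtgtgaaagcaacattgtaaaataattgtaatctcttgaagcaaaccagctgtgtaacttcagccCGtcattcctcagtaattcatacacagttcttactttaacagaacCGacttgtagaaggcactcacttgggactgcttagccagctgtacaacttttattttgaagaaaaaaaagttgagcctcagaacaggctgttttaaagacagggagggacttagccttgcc
Pde7b (chr10:20548329-20548578, minus strand): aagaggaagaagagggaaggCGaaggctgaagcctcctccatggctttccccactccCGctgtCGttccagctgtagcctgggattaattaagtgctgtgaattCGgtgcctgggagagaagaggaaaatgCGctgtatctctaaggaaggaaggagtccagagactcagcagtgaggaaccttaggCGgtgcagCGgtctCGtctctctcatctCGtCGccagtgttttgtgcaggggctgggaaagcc
Pde4d (chr13:108653927-108654176, plus strand): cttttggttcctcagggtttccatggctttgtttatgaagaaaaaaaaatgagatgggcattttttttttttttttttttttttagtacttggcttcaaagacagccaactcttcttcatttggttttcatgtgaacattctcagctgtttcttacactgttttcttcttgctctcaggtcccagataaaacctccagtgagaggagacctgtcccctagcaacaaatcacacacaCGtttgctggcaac

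The marked Pde1a sequence holds 1 CpG and is 43.2% G and C, and the Pde4d sequence holds 1 and is 38.8%. The next Pde1a start has 2 CpGs and Pde7b has 10, against a median of 6 over all 32851 listed starts, those of the Y chromosome included, of which 18.8% have at most 1. CpG-rich starts occurred among genes with and without peaks: Pde5a, with 1 peak per list, has 22 CpGs, while Pde8a, Pde11a and the first listed Pde10a start, without peaks, have 27, 15 and 21. The cAMP response element TGACGTCA, searched on both strands, was in 0 of the 18 member sequences and in 1.55% of all listed ones. Its core TGACG, which the full element contains, was in 3 of 18, against 17.8% of all. These were 1 start each of Pde4b, Pde1a and Pde8a, and the marked Pde1a start was not among them. The nearest peak to the Pde7b window lay 2.42 kb away with melatonin and 16.2 kb away without. For the Pde4d start these distances were 36.2 and 13.5 kb, in each list to a peak before the gene and outside its 10 kb flank.

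Of the 10 genes, 6 carried peaks, and they were the same 6 in both lists: Pde4d, Pde4b, Pde1a, Pde3a, Pde5a and Pde7b. The genes were not the same under stricter settings. At a fold of at least 6, Pde4d, Pde1a and Pde3a remained in both lists and Pde4b without melatonin alone. With each list cut to its 3849 lowest-p peaks, those 3 remained in both, Pde7b with melatonin alone and Pde4b without it alone. Among all protein-coding genes, 8.89% had a melatonin peak by this rule, 8.36% an untreated peak, 3.63% a peak in both lists and 86.4% in neither. Longer genes had one more often, and among the 2427 genes of at least 100 kb the shares were 33.6% and 33%. A peak in both lists was found in 21.1% of those long genes and in neither list in 54.5%, against 6 and 4 of the 10 phosphodiesterase genes. The share with a peak in both depended on length. It was 16.5% for genes from 100 to 300 kb, the class of 3 of the 10. From 300 to 600 kb, the class of 6 of the 10, it was 35.6%, and from 1000 kb, the class of Pde4d, 37.3%. The 10 genes were chosen with earlier results of these data known. The 25 melatonin peaks (95% Poisson interval 16.2 to 36.9) came to 0.541 per 100 kb of gene and flank, and the 30 untreated peaks (20.2 to 42.8) to 0.65. Over all genes of at least 100 kb the densities were 0.287 and 0.307. Melatonin peaks stood to untreated ones at a ratio of 0.833 (exact 95% interval 0.47 to 1.47), and over all long genes it was 0.936, inside that interval. Pde4d held 15 and 17 of these peaks, and without it the other 9 genes had 10 and 13, or 0.303 and 0.394 per 100 kb.

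**Figure D1:**
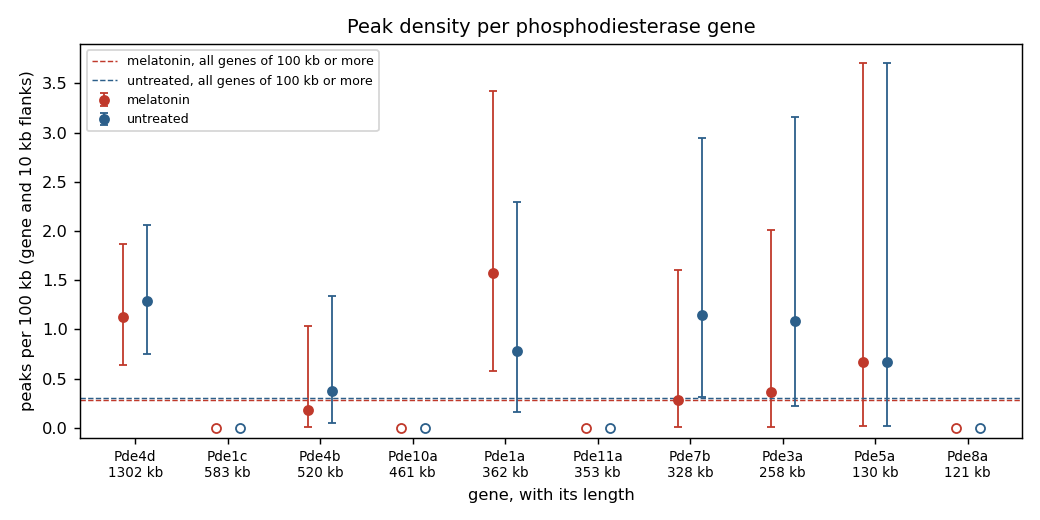
Peaks per 100 kb of gene and 10 kb flanks for each of the 10 genes, ordered by length, with the melatonin library in red and the untreated library in blue. Bars are exact 95% Poisson intervals, open circles are genes without a peak, and dashed lines are the densities over all genes of at least 100 kb (0.287 and 0.307). Both Pde4d intervals lie above the lines, as do those of Pde1a with melatonin and Pde7b without, and the other intervals reach below them.

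Among the genes of the cAMP-selective families, Pde4d had the most peaks and Pde8a had none. Pde4d, whose enzyme comes in many long and short forms, lies on chromosome 13 from 108654177 to 109955969. It had 15 melatonin peaks (interval 8.4 to 24.7), or 1.13 per 100 kb, and 17 untreated peaks (9.9 to 27.2), or 1.29 per 100 kb. The ratio was 0.882, with an interval of 0.41 to 1.88 that includes 1. Among the 59 genes of at least 1000 kb, Pde4d ranked 3 by density with melatonin and 4 without. The highest density among them was 3.03 in each list and the median was 0. Its surroundings were at least as dense. In the 1 Mb on either side, outside the 10 kb flanks, there were 28 melatonin and 37 untreated peaks, or 1.41 and 1.87 per 100 kb. Other genes of at least 100 kb on chromosome 13 held 0.558 and 0.585 per 100 kb.

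All 32 Pde4d peaks lay inside the gene, and none overlapped across the libraries. Among all peaks of the series, 6.12% of those with melatonin and 5.6% of those without met a peak of the other list. In Pde4d, 2 pairs came with midpoints within 5 kb of each other. The first was an untreated peak at 108699174 to 108700174 (14.4 tags per 10000000, fold 4.87) with a melatonin peak at 108702420 to 108703420 (12 tags, fold 4.93), 2.25 kb apart. The second was a melatonin peak at 108833889 to 108835195 (15.5 tags, fold 7.65) with an untreated peak at 108838558 to 108839558 (12.9 tags, fold 5.45), 3.36 kb apart. Both pairs lie within 185 kb of the listed start, measured to the midpoints.

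Along Pde4d the libraries' peaks alternated in 13 runs. The longest melatonin run had 7 peaks over 168 kb, from 109162820 to 109331286, with no untreated peak between them. It includes 4 peaks close together: those starting at 109320493 and 109322793 are 1.3 kb apart, and those starting at 109328690 and 109330286 are 0.596 kb apart. The longest untreated run had 5 peaks over 131 kb, from 109549384 to 109680686, within the longest stretch of the gene between melatonin peaks, 274 kb. The longest stretch between peaks of either list was 195 kb, from 108948189 to 109142855. With the gene split into 4 equal parts from its start, melatonin peaks numbered 5, 3, 5 and 2 and untreated peaks 6, 2, 4 and 5. The largest difference between the lists, 2 against 5, was in the part farthest from the start. It rests on few peaks and was not tested.

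**Figure D2:**
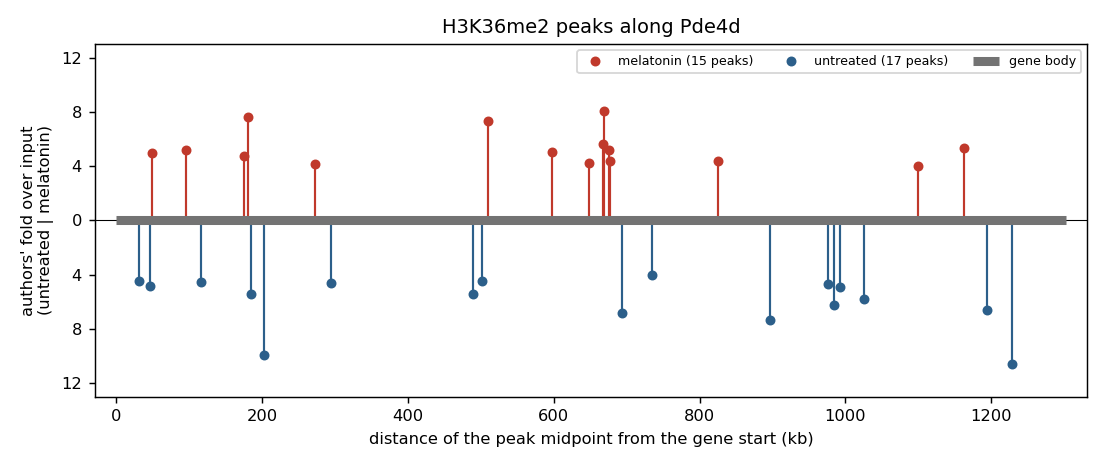
Peaks along Pde4d by distance of their midpoints from the gene start in kb, with the authors' fold over input drawn upward for the melatonin library and downward for the untreated library. The 15 melatonin and 17 untreated peaks spread over the gene, with a melatonin run near 509 to 677 kb and an untreated run near 896 to 1026 kb.

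The Pde4d peaks were of the ordinary strength of the lists. The melatonin peak with the highest fold lay at 109322793 to 109323793, with 13 tags, a fold of 8.04 and 2 input tags. Its untreated counterpart in rank lay at 109881682 to 109882682, with 12.5 tags, a fold of 10.57 and 1.6 input tags. The peaks with the most tags were others: 108926275 to 108927531 with melatonin (16.9 tags, fold 4.17) and 109637552 to 109638805 without (16.7 tags, fold 6.27). The median fold over the Pde4d peaks was 5.07 with melatonin and 5.45 without, against 5.11 and 4.87 over all peaks of each list. A fold of at least 6 was reached by 3 of 15 and 6 of 17, while over all peaks the shares were 30.1% and 24.1%.

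Pde4b, a cAMP-selective gene best known from inflammatory cells, lies on chromosome 4 from 102087332 to 102607275. It had 1 melatonin peak, at 102529803 to 102530803 (12.7 tags, fold 4.47). The untreated library had a peak 5.65 kb before it, at 102522569 to 102524153 (21.2 tags, fold 5.13). This untreated peak had the most tags of all peaks in the 10 genes, over a width of 1584 bp. Its findPeaks score was 18, where the smallest in the untreated list was 17. A second untreated peak near the lower-coordinate end, at 102097802 to 102098802 (14 tags, fold 11.86), had no melatonin peak within 431 kb. Other long genes of chromosome 4 held few called peaks, at 0.0832 and 0.0962 per 100 kb, against 0.185 and 0.37 in Pde4b. The Pde4b intervals, 0.00469 to 1.03 and 0.0449 to 1.34, include those values.

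Pde7b, whose enzyme has a high affinity for cAMP, lies on chromosome 10 from 20397052 to 20725078. It had 1 melatonin peak and 4 untreated peaks, a ratio of 0.25 with an interval of 0.00508 to 2.53 that includes 1. The melatonin peak at 20550998 to 20551998 (15.9 tags, fold 4.89) lies 3.17 kb from the listed start, measured to its midpoint. The untreated peak with the highest fold was at 20465423 to 20466423 (12.9 tags, fold 4.84) and that with the most tags at 20596981 to 20597981 (14 tags, fold 4.74). The 1 Mb on either side held 21 and 20 peaks, so the libraries' counts were near equal around the gene. Pde8a, the other cAMP-selective member (chromosome 7, 81213265 to 81334535), had no peak, and the nearest lay 1582 kb away with melatonin and 34 kb away without. Other long genes of chromosome 7 held 0.0874 and 0.1 peaks per 100 kb. The 4 cAMP-selective genes together had 17 and 23 peaks (ratio 0.739, interval 0.371 to 1.45).

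Among the genes for enzymes of both nucleotides, Pde1a had the most peaks. This calmodulin-activated gene lies on chromosome 2 from 79834453 to 80196522. It had 6 melatonin peaks, or 1.57 per 100 kb (interval 0.576 to 3.42), and 3 untreated peaks, or 0.785 (0.162 to 2.29). Its ratio of 2 (0.427 to 12.4) was the only one above 1 among the 6 genes with peaks, and its interval includes 1. The order was the other way around the gene, with 16 melatonin and 29 untreated peaks in the 1 Mb on either side. The melatonin peak at 80048668 to 80049668 had a fold of 15.22, the highest in the 10 genes, from 12.3 tags and 1 input tag. The melatonin peak with the most tags was at 79973644 to 79974644 (15.2 tags, fold 5.34), and an untreated peak at 79964374 to 79965374 (14 tags, fold 4.31) lay 8.27 kb from it. The untreated peak with the highest fold and the most tags was at 80083536 to 80084947 (18.6 tags, fold 6.98), with the nearest melatonin peak 25.1 kb away. It was 1411 bp wide, and its findPeaks score of 18.5 was below the 20 of the untreated peak at 80159541 to 80160541.

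Pde3a, which encodes a cGMP-inhibited enzyme of heart, vessel wall and platelets, lies on chromosome 6 from 141249269 to 141506862 and had 1 melatonin and 3 untreated peaks. The melatonin peak was at 141390839 to 141392118 (15.9 tags, fold 6.52). An untreated peak lay 6.06 kb before it, at 141383776 to 141384776 (14 tags, fold 4.31). The other untreated peaks were at 141334664 to 141335664 (12.9 tags, fold 7.26) and 141354397 to 141355397 (12.1 tags, fold 4.1). All 4 thus fell in the middle of the gene, between 33.3% and 55.2% of its length from the lower-coordinate end. The ratio of 0.333 had an interval of 0.00635 to 4.15.

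Pde1c, Pde10a and Pde11a, also for both nucleotides, had no peak in either list. Pde1c, the other calmodulin-activated gene (chromosome 6, 56069798 to 56652510, 583 kb), is the second longest of the 10, and its nearest peaks lay 253 kb away with melatonin and 176 kb without. Pde10a, known from striatal neurons (chromosome 17, 8525187 to 8986648), had its nearest peaks at 837 and 629 kb, and Pde11a (chromosome 2, 75985808 to 76339145) at 252 and 213 kb. Among the 405 genes from 300 to 600 kb, 42.2% had no peak in either list, so the absence of peaks was common at this length. The 1 Mb on either side of Pde1c held 7 and 1 peaks, of Pde10a 2 and 3, and of Pde11a 5 and 9. A gene without a listed peak may still carry the mark below the authors' threshold. The 5 genes for both nucleotides together had 7 and 6 peaks (ratio 1.17, interval 0.336 to 4.2).

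Pde5a, the cGMP-selective gene and the target of sildenafil (chromosome 3, 122729158 to 122859374), had 1 peak per list at opposite ends of the gene. The melatonin peak was at 122743007 to 122744007 (12.7 tags, fold 4.47), 14.3 kb from the start. The untreated peak was at 122851779 to 122853065 (15.5 tags, fold 4.38), 123 kb from the start. Each had the other library's nearest peak outside this pair, at 44.4 and 27.7 kb.

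**Figure D3:**
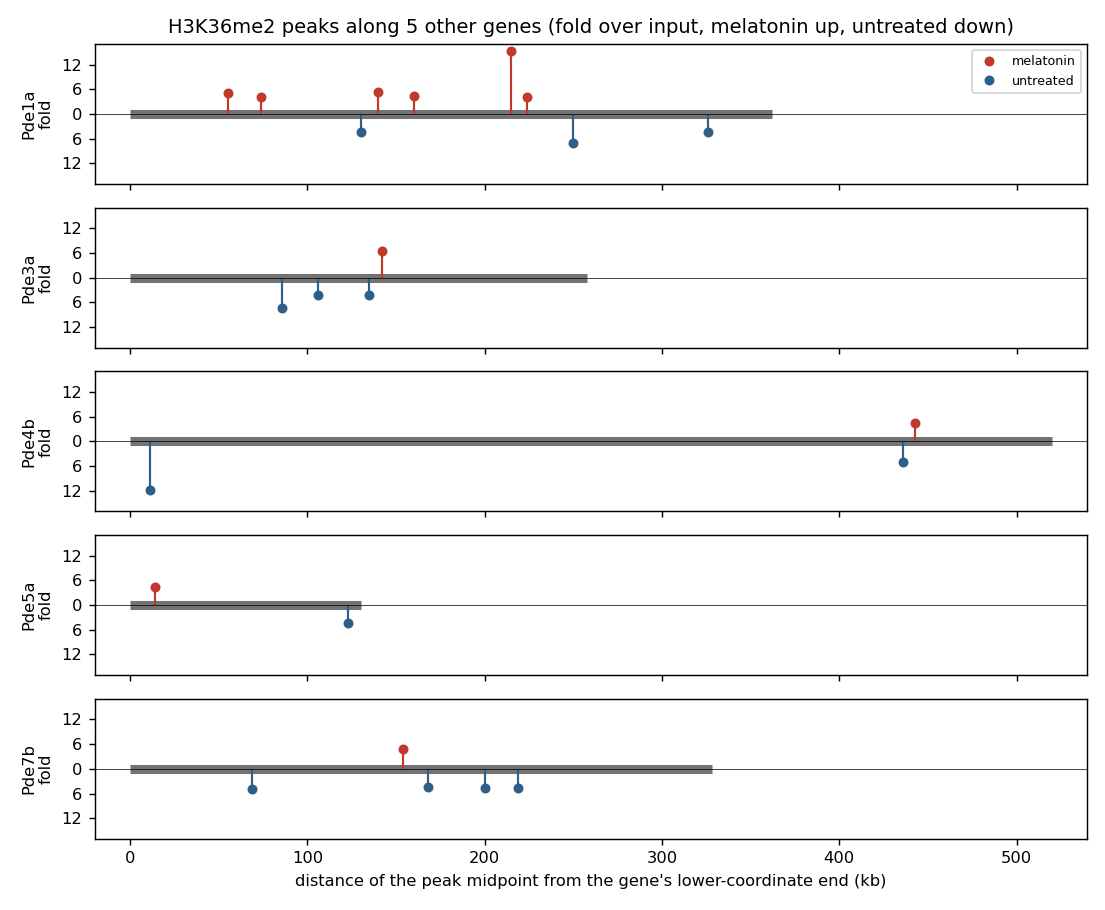
Peaks along Pde1a, Pde3a, Pde4b, Pde5a and Pde7b by distance of their midpoints from the gene's lower-coordinate end in kb, with the authors' fold over input upward for melatonin and downward for untreated. No red and blue peak coincide, the closest pairs being 5.65 kb apart in Pde4b and 6.06 kb in Pde3a.

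Over the 6 genes with peaks, 0 of 25 melatonin and 0 of 30 untreated peaks overlapped a peak of the other list. For peaks of all genes of at least 100 kb the shares were 3.6% and 3.32%. The median distance from a melatonin peak to the nearest untreated one was 22.6 kb in the phosphodiesterase genes, against 24.5 kb over all peaks and 33.7 kb over those of long genes. From an untreated peak to the nearest melatonin one it was 29.3 kb, against 25.6 and 37 kb. Within 5 kb of the other library's peaks lay 2 of 25 and 2 of 30, against 20.4% and 19% of all peaks, which include the overlapping ones. Within 10 kb it was 7 of 25 and 6 of 30, against 30.8% and 29.2% of all peaks. The nearest peak belonged to the same library for 13 of 25 and 15 of 30, and over all peaks in 45.9% and 50.3% of cases. Peaks of one library were thus about as often next to their own kind as to the other, as in the lists at large.

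**Figure D4:**
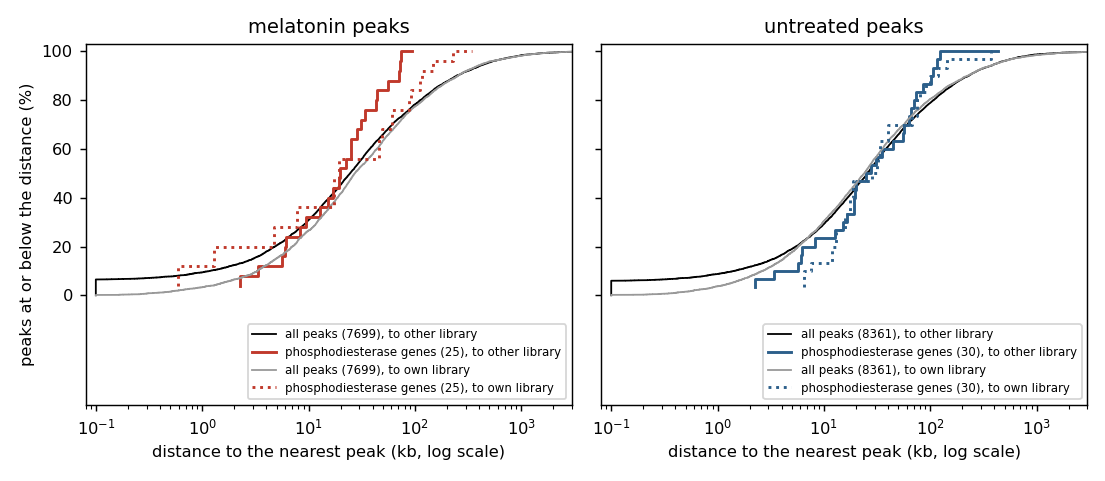
Share of peaks (in percent) at or below a given distance to the nearest peak in kb, on a log scale, with colored lines for the phosphodiesterase genes and black and grey lines for all peaks; overlaps are drawn at the left edge. Colored solid lines (to the other library) start at 2.25 kb, where the black lines already include overlapping pairs, and have medians of 22.6 and 29.3 kb.

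Most of these peaks were close to the calling threshold. The smallest findPeaks score in each list equals the tag minimum that the peak finder required, 18 with melatonin and 17 without. In the phosphodiesterase genes 17 of 25 and 22 of 30 peaks scored within 2 of that minimum, against 71.1% and 69.1% of all peaks. Normalized tags spanned 12 to 16.9 in the melatonin list and 11.7 to 21.2 in the untreated one, and input tags spanned 1 to 5 and 1.6 to 5.5. The smallest width of 1000 bp was found in 21 of 25 and 26 of 30. Whether the threshold sets which of the libraries shows a peak at a given site was not tested.

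**Figure D5:**
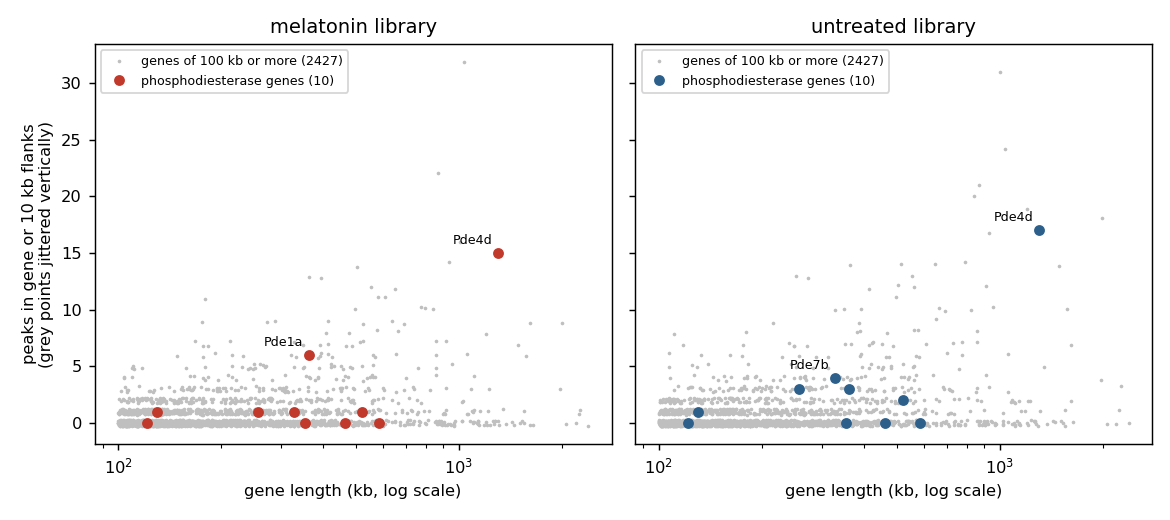
Number of peaks in the gene or 10 kb flanks against gene length in kb on a log scale, for 2427 protein-coding genes of at least 100 kb (grey, jittered vertically) and the 10 phosphodiesterase genes (colored). Pde4d, with 15 and 17 peaks, stands near the top of both panels, and 4 of the 10 genes are at 0 in both.

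The 14 other phosphodiesterase genes are shorter, with a median of 49.4 kb, and 5 had a peak in each list, with 6 melatonin and 7 untreated peaks in all. These came to 0.491 (interval 0.18 to 1.07) and 0.573 (0.23 to 1.18) per 100 kb. The 10 genes had 0.541 and 0.65, and without Pde4d 0.303 and 0.394. Beside the 5 of 14 genes per list, 8.89% and 8.36% of all protein-coding genes had a peak. Of those of at least 100 kb it was 33.6% and 33%. In 3 of the 14 genes both lists had a peak, against 3.63% of all protein-coding genes and 21.1% of those long ones. In 2 the melatonin list alone had a peak and in 2 the untreated list alone. These shares were 5.27% and 4.73% of all protein-coding genes, and 12.5% and 11.9% of those of at least 100 kb. Pde3b, the insulin-responsive cGMP-inhibited gene of fat cells and liver, had 1 and 2 peaks, and Pde8b had 0 and 2. Pde7a had 1 melatonin peak, outside the gene. The photoreceptor genes Pde6a and Pde6h had peaks in both lists, Pde6b with melatonin alone and Pde6c without it alone. The only overlapping pair in the family lay beside Pde6h on chromosome 6, with midpoints 8.65 kb (melatonin) and 9 kb (untreated) from its listed start, at 136945369 to 136946369 with melatonin (13.8 tags, fold 4.84) and 136945023 to 136946023 without (17.8 tags, fold 6.02). Pde1b, Pde2a, Pde4a, Pde4c, Pde6d, Pde6g and Pde9a had none.

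For the other parts of the pathway, the shares without a peak in either list, 86.4% of all protein-coding genes and 54.5% of those of at least 100 kb, serve as background. A peak in the melatonin list alone was found in 5.27% of all and 12.5% of those long genes. For the untreated list alone it was 4.73% and 11.9%. Differences between the lists in single genes were not tested. No peak was called in 11 of 16 cyclase genes, 15 of 19 effector genes, 5 of 10 anchoring protein genes and 7 of 8 melatonin receptor and G protein genes. Of the cyclase genes, which make the nucleotides, Adcy1 and Adcy8 had peaks with melatonin alone, Adcy2 and Adcy10 without it alone, and Npr1, a natriuretic peptide receptor, in both, outside the gene. Of the effector genes, Rapgef4, a cAMP-activated exchange factor, had 1 and 3 peaks, and Prkar2b, a protein kinase A subunit gene, and Crem, a cAMP-responsive transcription factor gene, had 1 each with melatonin alone. Prkg1, the cGMP-dependent kinase gene of 1201 kb, had 8 and 19 peaks, 7 and 19 of them inside the gene. The difference in its counts was not tested. None of its peaks overlapped across the lists, where 3.6% and 3.32% of the peaks of genes of at least 100 kb did. Of the anchoring protein genes, which place protein kinase A and phosphodiesterases in the cell, Akap6 had 5 and 2 peaks, 4 and 2 of them inside the gene. Akap9 had 3 and 0, with 2 inside the gene, and Akap7 had 0 and 2, with 1 inside. Akap11 and Akap13 had 0 and 1 each, outside the gene. Of the melatonin receptor and G protein genes, Gnai1, for an inhibitory subunit, had 1 melatonin peak, and both receptor genes, Mtnr1a and Mtnr1b, had none.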

How the data were processed

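Peaks were called by the authors with HOMER findPeaks in histone style, for each ChIP library against its own input and with the local filter off, per the file headers. The number in each file's name is that of the input library, while its header names the ChIP library of the sample it was deposited under, and the header was followed. A window of 1000 bp required at least 18 tags (melatonin) or 17 (untreated), a fold of 4 and a p of 1e-04 over input. Processing notes from the submitters name BWA 0.7.13, MACS2 2.1.0 and Picard 1.126; the headers name HOMER, with a version not given in the sources used here.

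Deposited normalized tag counts are a signal per 10000000 tags, per the file headers, and ChIP and input tags are a signal deposited at the depth of the shallower of the pair. The fold (a ratio), the unadjusted p-value and the score are the authors' and describe peaks within a list only. The deposited clonal ratio was not used.

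The notes name mm39, but peaks end at 159805034 on chromosome 3 and 145328623 on chromosome 7, past the ends of both in that build, so coordinates were read as GRCm38 and set against RefSeq tables of GRCm38.p6. No genome sequence was used: peak sequences are not shown and exons were not separated. Overlap means 1 bp or more and distances are edge to edge unless given to a midpoint. Intervals are exact 95% Poisson (counts) and binomial (ratios) intervals; they treat reads and peaks as independent, which PCR copies and clustered peaks are not. Counting was tested on simulated peaks (Python 3.11.15, scipy 1.17.1).

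All 10 members are named, with every peak where a gene had at most 4, and otherwise the peaks of highest fold and most tags and pairs with midpoints within 5 kb; the Pde4d runs, the Pde1a peak at a start and its pair 8.27 kb apart were added after their values were seen. Genes of the pathway lists are named where they had a peak. Members and lists were chosen with earlier results of these data known. Alternatives covered flanks, thresholds, list size and overlap rules, and leaving out Pde4d was added after seeing the data.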

Additional observations from a re-analysis of the deposited data

How the results depend on the processing

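With 1 library per condition, counting error and the calling threshold limit every value. No paired analysis was possible because each condition has 1 library and no test was made. Gene bodies alone, flanks of 2 or 50 kb, a p of at most 1e-05 and midpoint assignment left the pooled counts, densities, ratio, medians and marked genes within 1.5 times or their intervals. Under all alternatives run, 0 peaks in either list were shared, including with midpoints within 1000 bp. At a fold of at least 6, melatonin peaks fell to 5 (0.108 per 100 kb) in 3 genes and untreated peaks to 9 (0.195 per 100 kb), with 3 and 6 in Pde4d. The median distance from an untreated peak to a melatonin peak was then 226 kb. With the 3849 lowest-p peaks of each list there were 9 melatonin peaks (0.195 per 100 kb) and 12 untreated peaks (0.26 per 100 kb), with 5 and 8 in Pde4d, and that median was 270 kb. Both settings keep fewer peaks by construction. Without Pde4d there were 10 (0.303 per 100 kb) and 13 (0.394 per 100 kb). The Pde4d ratio was 0.5 (interval 0.0809 to 2.34) at a fold of at least 6 and 0.625 (0.161 to 2.17) with the lowest-p peaks. Of 198 peak counts of single genes under the alternatives, 174 stayed within 1.5 times and 24 did not, all under the fold, lowest-p or 50 kb settings. With 50 kb flanks Pde8a gained 1 untreated peak.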
